A study of Mus musculus with 12 samples.

Results

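The TNF ligand and receptor superfamily was followed as all mouse genes whose symbol begins with Tnfsf (ligands) or Tnfrsf (receptors). The rule found 32 of the 36439 genes counted in every library: 11 ligand genes, 20 receptor genes and the antisense transcript Tnfsf13os. A further ligand symbol, Tnfsf12, was not analysed here. Classical members with other names, such as Tnf, Cd40 and Fas, lay outside the rule and were described as a related list.

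Expression was measured by RNA sequencing of total RNA from tumour-associated macrophages (TAMs), the macrophages that live inside a solid tumour, in 4 groups of 3 libraries. The tumours were subcutaneous Lewis lung carcinomas, which are transplanted mouse tumours of lung origin, in C57BL/6 mice. In the first comparison, F4/80+MRC1+ TAMs were set against F4/80+CD11c+ TAMs, which asks how macrophages carrying the mannose receptor MRC1 differ from those carrying the integrin CD11c. In the second, F4/80+ TAMs overexpressing miR-511-3p were set against F4/80+ TAMs overexpressing a mutated form, miR-511-3p-mut, which asks what the intact microRNA does to gene expression. The sample titles of both overexpressing groups also carry SFFV, the name of a viral promoter. F4/80 is a surface protein of mouse macrophages. The age and sex of the mice and the number of tumours per library are not given in the labels, so a p-value here reflects library-to-library spread, part or all of which may be technical.

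TNF superfamily ligands are mostly membrane proteins that act as trimers, on the cell surface or after cleavage by a protease. Many of their receptors bind TRAF adaptors and switch on canonical or noncanonical NF-kappaB signalling, and some carry a death domain that can start apoptosis. In immune tissue the family is known for costimulation of T cells, for B cell survival, for bone resorption through RANK, and for the inflammatory actions of TNF itself.

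Each MRC1+ library had 15664146 to 17689064 reads in genes and each CD11c+ library 10824918 to 17318957, while each miR-511-3p library had 23326219 to 27186233 and each miR-511-3p-mut library 22906418 to 27890433. The macrophage marker list summed to 7559.7 to 9830.1 CPM (read counts scaled to library size, with TMM factors over the 12 libraries) in MRC1+ TAMs and to 6940.4 to 8853 CPM in CD11c+ TAMs, and to 9852 to 11303 CPM in miR-511-3p TAMs and to 9761 to 12047 CPM in miR-511-3p-mut TAMs. In these sums Lyz2 averaged 4629 CPM in MRC1+ and 4558 CPM in CD11c+ TAMs. The sums hide differences of single macrophage markers between the sorted groups, which are given below. Mrc1 and Itgax (the CD11c gene), which follow the sort, were at 3444 to 3914 and 75.0 to 117 CPM in MRC1+ TAMs, against 1384 to 1747 and 902 to 1005 CPM in CD11c+ TAMs. Fibroblast markers stood apart within 2 groups. In the first CD11c+ library they summed to 1151 CPM, against 264 and 319 CPM in the other CD11c+ libraries. The MRC1+ libraries, at 839.7, 603 and 788 CPM, lay between these values. In the third miR-511-3p-mut library fibroblast markers summed to 669 CPM, against 184 and 169.6 CPM in the others of that group.

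Levels were compared among the Tnfsf and Tnfrsf genes as mean CPM per kilobase of exon. Members with other names, such as Tnf, were not ranked. Tnfsf9, the ligand of the costimulatory receptor CD137, was the leading Tnfsf transcript in every group. It stood at 36.3 CPM per kilobase in MRC1+ TAMs (range of the libraries 18.9 to 67.4), 94.2 in CD11c+ TAMs (38.2 to 202), 45.3 in miR-511-3p TAMs (33.9 to 57.1) and 35.2 in miR-511-3p-mut TAMs (34.2 to 36.9). In none of the groups did its range overlap that of the next ligand. Of the summed level per kilobase of the Tnfsf ligand genes, Tnfsf9 alone made up 68.0% in MRC1+ TAMs and 78.9% in CD11c+ TAMs. Its share was 71.2% in miR-511-3p TAMs and 66.4% in miR-511-3p-mut TAMs. The second ligand in order was Tnfsf15 (TL1A, the ligand of DR3) in MRC1+ TAMs, at 4.73 CPM per kilobase. In the 3 other groups it was Tnfsf14 (LIGHT, a ligand of HVEM), at 6.88 in CD11c+, 6.74 in miR-511-3p and 5.55 in miR-511-3p-mut TAMs. Ranges of Tnfsf15 and Tnfsf14 overlapped in both sorted groups, so their order there was not resolved.

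Tnfrsf1b, a receptor of TNF itself, led the receptors in both sorted groups, and Tnfrsf1b and the other TNF receptor Tnfrsf1a led in both overexpressing groups. Tnfrsf1b (TNFR2), which binds TRAF adaptors, was at 85.3 CPM per kilobase in MRC1+ TAMs, 132 in CD11c+ TAMs, 123 in miR-511-3p TAMs and 128 in miR-511-3p-mut TAMs. Tnfrsf1a (TNFR1), the death domain receptor of TNF, was at 31.6 in MRC1+ TAMs, 42.6 in CD11c+ TAMs, 124 in miR-511-3p TAMs and 120.4 in miR-511-3p-mut TAMs. Ranges of these receptors overlapped in both overexpressing groups, while in both sorted groups Tnfrsf1b lay above every other receptor with no overlap. The sorted and the overexpressing cells are different preparations, and no test was run between them. Their libraries also differ in the share of reads over no gene, given below.

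Other receptors with high levels were Tnfrsf14 (HVEM), Tnfrsf9 (CD137), Tnfrsf11a (RANK), Tnfrsf21 (DR6) and Tnfrsf13b (TACI, a receptor of BAFF and APRIL). Tnfrsf14, at 36.6 CPM per kilobase in MRC1+ and 56.9 in CD11c+ TAMs, and Tnfrsf9 had higher means than Tnfrsf1a in both sorted groups, with overlapping ranges in MRC1+ TAMs. The level of Tnfrsf9 was 35.6 CPM per kilobase in MRC1+ and 70.9 in CD11c+ TAMs, and 11.8 in miR-511-3p and 15.9 in miR-511-3p-mut TAMs. Tnfrsf11a was at 25.9 in MRC1+, 23.3 in CD11c+, 30.7 in miR-511-3p and 30.8 in miR-511-3p-mut TAMs. The 4 leading receptors held 72.7% of the summed receptor level per kilobase in MRC1+ TAMs, 79.9% in CD11c+ TAMs, 83.5% in miR-511-3p TAMs and 82.3% in miR-511-3p-mut TAMs. At the low end, Tnfrsf17, Tnfrsf19, Tnfrsf11b (osteoprotegerin), Tnfrsf25 (DR3) and Tnfrsf13c (the BAFF receptor) were below 1 CPM in every library. The readthrough gene Tnfsfm13, which shares 76.7% of its exon bases with same-strand neighbours, had 0 reads in all 12 libraries. Tnfsf13 (APRIL) shares 60.0% of its exon bases in the same way, and 22.8% of Tnfsf13os lies opposite another gene, so counts of both are uncertain. Opposite-strand genes also cover 14.9% of the exon bases of Tnfsf9 and 27.2% of those of Tnfrsf18.

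**Figure D1:**
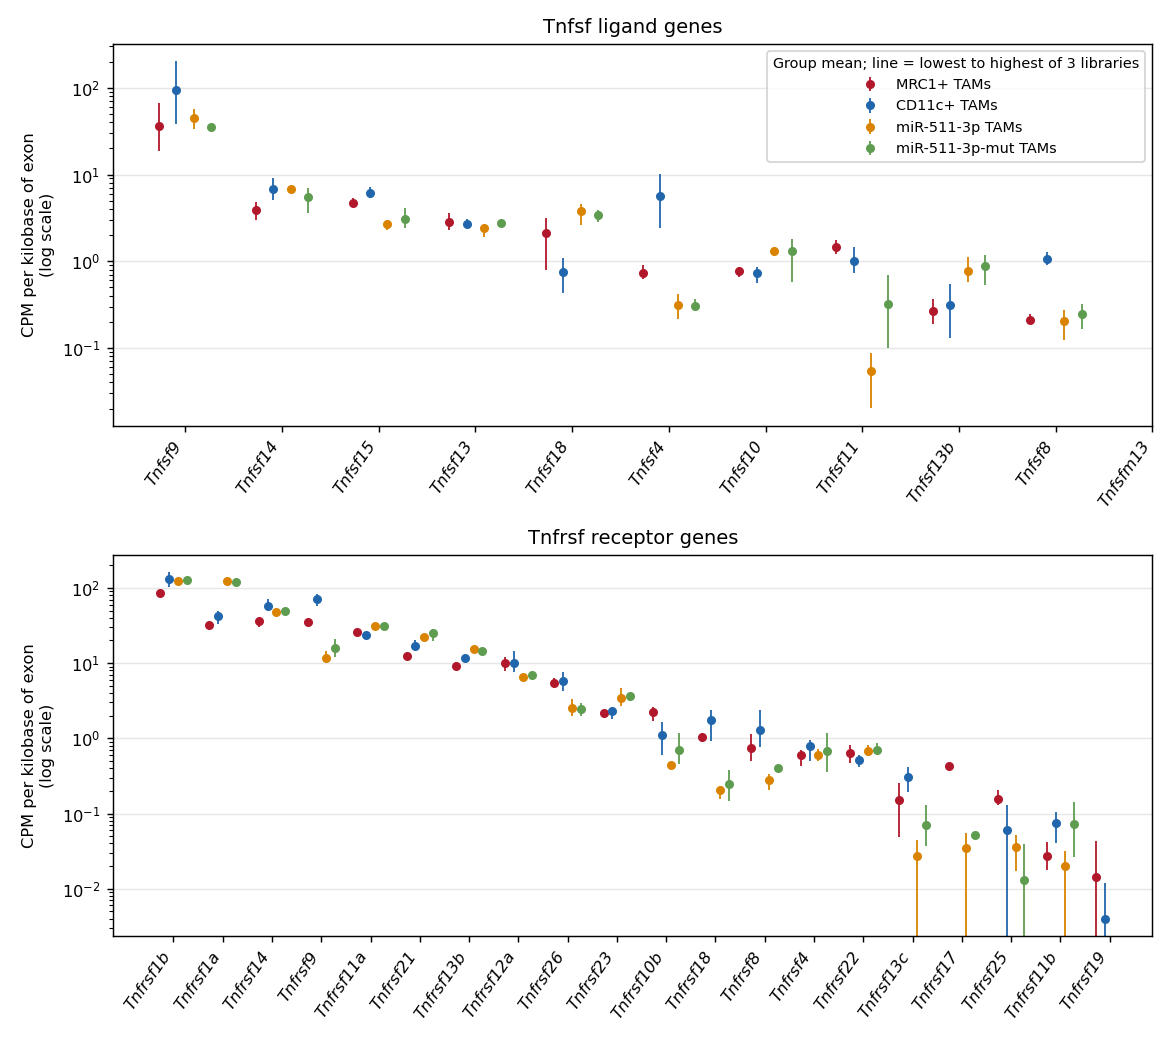
Mean level of each Tnfsf gene (top) and Tnfrsf gene (bottom) in 4 groups of 3 libraries, in CPM per kilobase of exon on a log scale, with lines from the lowest to the highest library and genes ordered by their mean level; values of 0 cannot be drawn. Tnfsf9 stands above every other Tnfsf gene shown in each group, and the Tnfrsf genes fall over several orders of magnitude from Tnfrsf1b to Tnfrsf19.

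In the sorted cells, the family members that passed the test were all lower in MRC1+ TAMs: the costimulatory ligands Tnfsf4 (OX40 ligand) and Tnfsf8 (CD30 ligand), and the receptors Tnfrsf9, Tnfrsf1b and Tnfrsf14. Of the 32 members, 26 had enough reads to be tested. Of these, 5 (19.2%) were lower at an adjusted p of at most 0.05 by the quasi-likelihood test of edgeR, adjusted by Benjamini-Hochberg over all 15622 genes, where 9.71% of all genes were called lower. No member was called higher, where 6.91% of all genes were; 2 members, Tnfrsf10b and Tnfsf18, were higher at an unadjusted p under 0.05, and DESeq2 called the same 2 higher. The median log2 fold change was -0.36 over the members tested and 0.0119 over all genes tested, and 18 of the 26 members lay below 0. It was -0.32 over the 10 ligands tested and -0.36 over the 15 receptors tested. With the replicate number as a block, 8 members were called, 7 lower and 1 higher. The labels do not state this pairing, which was taken from correlations in these same data.

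Tnfsf4, known for sustaining T cells through OX40, had 1.19, 1.16 and 1.69 CPM in MRC1+ TAMs, against 4.49, 8.38 and 18.7 CPM in CD11c+ TAMs. The groups did not overlap, and the CD11c+ libraries differed among themselves more than the MRC1+ libraries did. Its log2 fold change was -2.93 ± 0.52 (SE, n = 3 each, adjusted p = 0.00766 in edgeR's quasi-likelihood test). Tnfsf8 had 0.712, 0.757 and 0.931 CPM in MRC1+ TAMs, against 3.76, 3.48 and 4.92 CPM in CD11c+ TAMs, with every CD11c+ library above every MRC1+ library. Its log2 fold change was -2.31 ± 0.25 (SE, adjusted p = 0.00068 in edgeR). Both are transcripts of low abundance, and a filter of 5 CPM in 3 libraries removed them from the test.

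The receptors of these ligands, Tnfrsf4 (OX40) and Tnfrsf8 (CD30), best known from activated T cells, were low in both sorted groups. Tnfrsf4 was at 0.594 to 0.959 CPM in MRC1+ TAMs and 0.673 to 1.31 CPM in CD11c+ TAMs, with a log2 fold change of -0.35 ± 0.35. Tnfrsf8 had 1.72, 2.22 and 3.90 CPM in MRC1+ TAMs, against 2.64, 2.79 and 8.17 CPM in CD11c+ TAMs, with a log2 fold change of -0.73 ± 0.49 that became -0.04 without the third CD11c+ library. Neither passed the test, and the groups overlapped for both.

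Tnfrsf9, the receptor CD137 that costimulates T cells and NK cells, had 95.4, 109 and 86.4 CPM in MRC1+ TAMs, against 154, 224 and 200.2 CPM in CD11c+ TAMs. All CD11c+ libraries were above all MRC1+ libraries, and the log2 fold change was -0.99 ± 0.15 (SE, adjusted p = 0.0035 in edgeR). Tnfsf8, Tnfrsf9 and Tnfsf4 were called lower in each of the 6 fits that left out 1 library.

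The RefSeq table of promoters (GRCm38.p6, 250 bases before to 50 after the start) held 25 of the 32 members. The letters GGGNNNNNCC or their reverse complement GGNNNNNCCC, a loose form of the kappaB motif bound by NF-kappaB, were searched on both strands. They were present in 15 of the 29 member promoters (51.7%) and in 50.8% of all 32851 promoters, so the share in the family was near that of all promoters. Counted by gene, with any promoter sufficing, 14 of these 25 members (56.0%) had a match. Of the called members, Tnfrsf1b had 3 matches, some of which overlap, Tnfrsf14 had 1 and Tnfsf8 had none. Tnfsf4 had no promoter among those held. Tnfrsf9 has 2 start sites in the table, and the downstream one, at chr4:150927749-150928048 on the plus strand, is shown because it holds an overlapping pair of matches, at positions -43 and -42 from the start. The capitals mark that pair.
Tnfrsf9 promoter: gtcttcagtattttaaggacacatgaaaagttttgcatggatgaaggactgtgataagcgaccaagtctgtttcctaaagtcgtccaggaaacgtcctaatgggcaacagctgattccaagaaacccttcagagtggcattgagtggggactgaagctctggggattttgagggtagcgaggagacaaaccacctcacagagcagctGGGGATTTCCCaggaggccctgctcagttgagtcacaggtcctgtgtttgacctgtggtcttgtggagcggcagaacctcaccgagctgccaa
These matches describe letters in the window and are not a measure of binding. The upstream start of Tnfrsf9 held no match.

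Tnfrsf1b had 329, 302 and 346 CPM in MRC1+ TAMs, against 396, 498 and 617 CPM in CD11c+ TAMs. The groups did not overlap, and the log2 fold change was -0.63 ± 0.16 (SE, adjusted p = 0.0305 in edgeR). Tnfrsf14 had 56.8, 57.2 and 43.7 CPM in MRC1+ TAMs, against 72.4, 102 and 71.4 CPM in CD11c+ TAMs, again with no overlap, and its log2 fold change was -0.64 ± 0.17 (SE, adjusted p = 0.0341 in edgeR). These 2 calls were close to the threshold. That of Tnfrsf1b was lost when any MRC1+ library or the second or the third CD11c+ library was left out, and its adjusted p ranged from 0.00187 to 0.11 over the alternatives. That of Tnfrsf14 was lost without any MRC1+ library or the second CD11c+ library, with adjusted p from 0.00391 to 0.109.

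**Figure D2:**
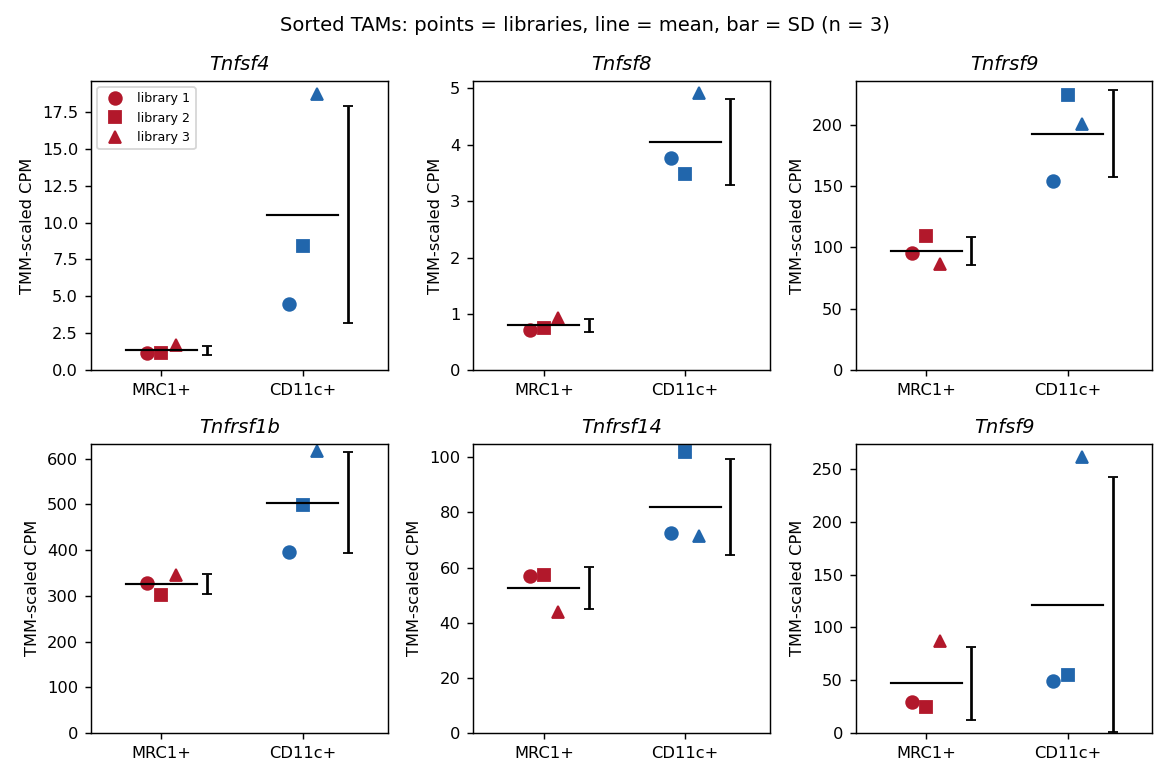
TMM-scaled CPM of Tnfsf4, Tnfsf8, Tnfrsf9, Tnfrsf1b, Tnfrsf14 and Tnfsf9 in each MRC1+ library (left of each panel) and each CD11c+ library (right), with the mean as a line and the SD of the 3 libraries as a bar beside the points; axes start at 0 and the marker shape gives the replicate number. The groups do not overlap for the 5 members called lower in MRC1+ TAMs, while for Tnfsf9 the third MRC1+ library, at 87.0 CPM, lies above the first 2 CD11c+ libraries.

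Counted without regard to the test, 9 of the 26 members tested (34.6%) had all MRC1+ libraries below all CD11c+ libraries, where 19.9% of all genes did. The 4 beyond those called were Tnfrsf13b, Tnfrsf21, Tnfrsf1a and Tnfsf14, with log2 fold changes of -0.36, -0.45, -0.43 and -0.78 and adjusted p of 0.0517, 0.0546, 0.0666 and 0.0673 in edgeR. Only Tnfrsf10b, the mouse death receptor of TRAIL, had all MRC1+ libraries above all CD11c+ libraries among the members tested, where 18.5% of all genes did. Tnfrsf10b had 9.32, 14.3 and 12.9 CPM in MRC1+ TAMs, against 9.09, 5.64 and 3.25 CPM in CD11c+ TAMs, with a log2 fold change of 0.99 ± 0.32 (SE, adjusted p = 0.0717 in edgeR). Leaving out the first CD11c+ library, the highest in fibroblast markers, gave 1.40 (adjusted p = 0.0055 in edgeR). The CD11c+ libraries kept in that fit had fibroblast sums of 264 and 319 CPM, against 603 to 839.7 CPM in MRC1+ TAMs. Without the first CD11c+ library 13 members were called, 11 lower and 2 higher, among them all 5 named above. In that fit 14.8% of all genes were lower and 14.8% higher.

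Tnfsf9, the ligand of Tnfrsf9 and the most abundant of the Tnfsf genes, differed between the groups in every same-numbered pair. It did not pass the unpaired test. It had 29.1, 24.4 and 87.0 CPM in MRC1+ TAMs, against 49.3, 54.6 and 261 CPM in CD11c+ TAMs. The libraries numbered 3 were the highest of their group in both, so the groups overlapped. The log2 fold change was -1.36 ± 0.72 (SE, adjusted p = 0.224 in edgeR), and it was -0.14 without the third CD11c+ library. In pairs by number the log2 ratios were -0.76, -1.16 and -1.58, and with the number as a block the log2 fold change was -1.18 ± 0.16 (adjusted p = 0.00477 in edgeR). Since the pairs were read from these same data and the gene was chosen after it was seen, p-values with the block are descriptive only. Tnf showed the same layout at higher CPM. It had 91.2, 84.8 and 256 CPM in MRC1+ TAMs, against 103, 156 and 611 CPM in CD11c+ TAMs. Its log2 fold change was -1.0 ± 0.68 without the block (adjusted p = 0.34) and -0.78 ± 0.19 with it (adjusted p = 0.0409, both in edgeR).

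**Figure D3:**
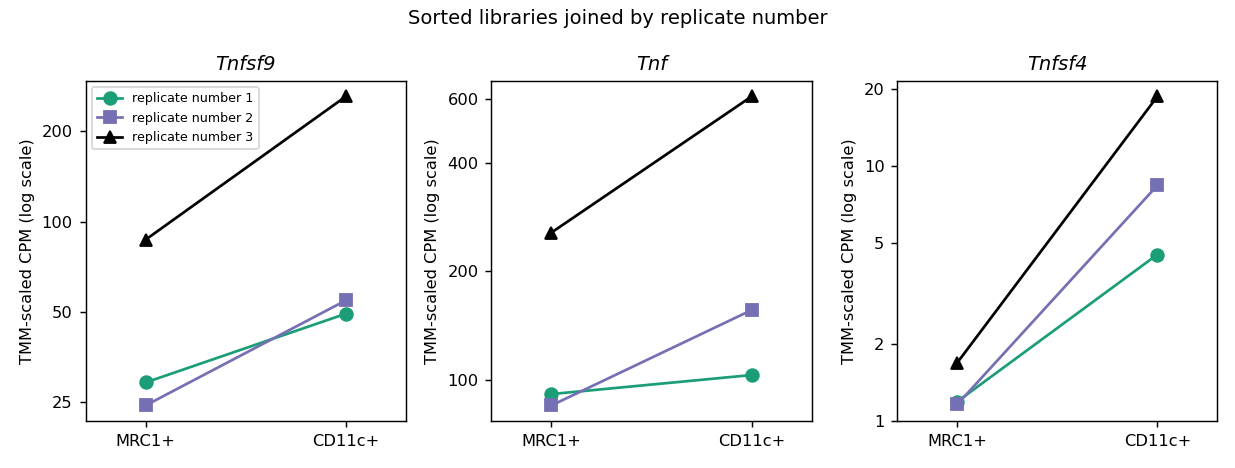
TMM-scaled CPM on a log scale of Tnfsf9, Tnf and Tnfsf4 in MRC1+ and CD11c+ libraries, with lines joining libraries of the same replicate number. Each line runs upward to the CD11c+ library, and the libraries numbered 3 lie highest for all 3 genes, with Tnfsf9 at 87.0 CPM in the MRC1+ and 261 CPM in the CD11c+ library.

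Tnfsf18, the ligand of the costimulatory receptor GITR, ran the other way. It had 5.05, 6.46 and 1.63 CPM in MRC1+ TAMs, against 1.57, 2.22 and 0.886 CPM in CD11c+ TAMs, and the third libraries were the lowest of both groups. Its log2 fold change was 1.44 ± 0.51 (adjusted p = 0.0885) without the block and 1.47 ± 0.23 (adjusted p = 0.00839) with it, both in edgeR. The limit on the block given for Tnfsf9 holds for Tnfsf18 too. GITR itself, Tnfrsf18, had a log2 fold change of -0.72 ± 0.35 (adjusted p = 0.197 in edgeR) at 1.37 to 1.82 CPM in MRC1+ and 1.40 to 3.64 CPM in CD11c+ TAMs. Tnfrsf21 was also called under the block, with a log2 fold change of -0.43 (adjusted p = 0.0211 in edgeR). DESeq2, no filter on low counts and the fit on all 12 libraries called both Tnfsf18 and Tnfrsf21 as well.

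Among the remaining tested members, Tnfsf15 differed between MRC1+ and CD11c+ TAMs by -0.23, -0.43 and -0.41 on the log2 CPM scale in the 3 same-numbered pairs. The groups overlapped, and the log2 fold change of -0.37 ± 0.15 did not pass (adjusted p = 0.13 in edgeR), but did without the first CD11c+ library (adjusted p = 0.0429 in edgeR). Tnfrsf11a and its ligand Tnfsf11 (RANK ligand) had log2 fold changes of 0.15 ± 0.10 and 0.55 ± 0.30. The TRAIL gene Tnfsf10 (0.07 ± 0.21), Tnfsf13 (0.07 ± 0.21), Tnfrsf12a (0.01 ± 0.25), the receptor of the ligand TWEAK, the mouse decoy TRAIL receptor Tnfrsf23 (-0.05 ± 0.18) and Tnfrsf26 (-0.07 ± 0.21) lay nearest to 0. Tnfsf13b (BAFF) differed in sign between the pairs, with log2 ratios of -1.53, 0.51 and 0.93.

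Members with too few reads for the test were given by their summed reads. Tnfrsf17 (BCMA), known as a receptor of plasma cells, had 19 reads over the MRC1+ libraries, at 0.349 to 0.356 CPM in each, and 0 over the CD11c+ libraries. Set against a floor of 3 reads over the CD11c+ group, and with the 19 reads taken as exact, it was 5.81-fold higher in MRC1+ TAMs. The B and plasma cell markers summed to 7.01 to 10.5 CPM in MRC1+ TAMs and to 6.15 to 17.1 CPM in CD11c+ TAMs, and none of the 7 was at 0 throughout either group; their part in the result was not tested. Tnfrsf25 had 19 reads in MRC1+ TAMs and 5 in CD11c+ TAMs, a ratio of 3.49 (95% interval 1.26 to 11.9). Tnfrsf13c had 16 reads in MRC1+ TAMs and 30 in CD11c+ TAMs, a ratio of 0.489 (0.249 to 0.927). Tnfrsf11b had 4 in MRC1+ and 9 in CD11c+ TAMs, and Tnfrsf19 had 4 in MRC1+ and 1 in CD11c+ TAMs. These intervals cover counting error only, and the floor allows for it in the CD11c+ count alone. With no filter on low counts, Tnfrsf17 was called higher (adjusted p = 0.00561) and Tnfrsf25 was not called (adjusted p = 0.234, both in edgeR). Tnfrsf13c entered the test in 6 of the alternatives and was called in none.

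Markers of other cells also differed between the sorted groups, and not all in the direction of the called members. All 10 fibroblast markers lay above 0, with a median log2 fold change of 0.446, and none was called. Of 4 B and plasma cell markers tested, 2 lay above 0 and none was called. Of 6 neutrophil markers tested, 1 was lower and 0 lay above 0. Of 10 dendritic cell markers, 7 were lower in MRC1+ TAMs in edgeR and DESeq2, and all 10 lay below 0. The list summed to 453 to 679 CPM in MRC1+ TAMs, against 803 to 1545 CPM in CD11c+ TAMs. In these sums Cd83, which was not called, averaged 455 CPM in MRC1+ and 681 CPM in CD11c+ TAMs. Among the called dendritic cell markers, Ccr7, a chemokine receptor of migrating dendritic cells, had 3.50, 2.27 and 3.32 CPM in MRC1+ TAMs, against 65.1, 93.0 and 194 CPM in CD11c+ TAMs. The third CD11c+ library was the highest for both Ccr7 and Tnfsf4. Of 6 NK cell markers tested, 3 were lower, and the 7 listed summed to 8.67 to 14.5 CPM in MRC1+ TAMs and to 61.6 to 83.3 CPM in CD11c+ TAMs. Klrk1, an activating receptor gene in that list, was at 2.91 to 4.69 CPM in MRC1+ TAMs and at 47.9 to 61.0 CPM in CD11c+ TAMs. T cell markers summed to 66.2 to 128 CPM in MRC1+ TAMs and to 27.3 to 101 CPM in CD11c+ TAMs, sums in which Cd4 averaged 85.4 CPM in MRC1+ and 42.8 CPM in CD11c+ TAMs. Of 7 T cell markers tested, 1 lay above 0, the median log2 fold change was -0.47, and Cd5 was called lower (-1.64, adjusted p = 0.0232 in edgeR). Of 4 endothelial markers tested, 3 were lower, among them Pecam1 (-1.98), and 1 was higher, and the list summed to 36.5 to 45.7 CPM in MRC1+ TAMs and to 87.3 to 130.4 CPM in CD11c+ TAMs. Of 6 epithelial and carcinoma markers, 4 (Krt8, Krt18, Krt19 and Hmga2) were higher in MRC1+ TAMs, as Ngfr and Rhbdf1 were, and 2 (Epcam and Cdh1) were lower, with sums of 144 to 209 CPM in MRC1+ TAMs and 118 to 170.2 CPM in CD11c+ TAMs. No marker of these lists was at 0 throughout a sorted group. Their part in the differences of the genes named was not tested, and in bulk libraries fewer cells of a type and less RNA per cell cannot be told apart.

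Superfamily members with other names were split in direction. Of 15 listed, 10 were tested: Relt, an orphan receptor (log2 fold change -1.10 ± 0.15, adjusted p = 0.0021), and Ltb, the membrane lymphotoxin subunit (-2.14 ± 0.30, adjusted p = 0.00257), were lower in MRC1+ TAMs. Ngfr, the low-affinity neurotrophin receptor, was higher (1.05 ± 0.25, adjusted p = 0.026, all in edgeR). The fourth by p, Cd40, the costimulatory receptor of antigen-presenting cells, had a log2 fold change of -0.67 ± 0.20 (adjusted p = 0.0522 in edgeR). It had 46.4, 45.3 and 47.9 CPM in MRC1+ TAMs, against 50.6, 78.9 and 93.7 CPM in CD11c+ TAMs. The median over the list was -0.05. With the replicate block 5 of the list were called, adding Tnf and Cd40.

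The adaptors and kinases next to the receptors were lower where they passed. Of 28 genes in the list of TRAF adaptors and receptor-proximal signalling, all tested, 6 were lower in MRC1+ TAMs and none higher. Of all genes, 9.71% were lower and 6.91% higher. The median log2 fold change of the list was -0.21. At an unadjusted p under 0.05, 1 gene of the list, Traf3ip2, was higher, and DESeq2 called none higher and 8 lower. The 4 of lowest p were Map3k14 (NIK, the kinase of the noncanonical NF-kappaB pathway, -1.35 ± 0.21), Cyld (a deubiquitinase that restrains NF-kappaB, -0.45 ± 0.08), Map3k5 (ASK1, a stress kinase, -0.34 ± 0.08) and Sharpin (a subunit of the linear ubiquitin ligase, -0.41 ± 0.10), with adjusted p of 0.0041, 0.00917, 0.027 and 0.0295 in edgeR. Leaving out 1 library gave between 2 and 11 called genes of the list. In those fits 5.43% to 14.8% of all genes were lower and 2.46% to 14.8% higher.

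Of 12 NF-kappaB subunits, inhibitors and kinases, 1 lay above 0, with a median log2 fold change of -0.44, and 4 were lower in MRC1+ TAMs, where 9.71% of all genes were. The 4 were Rel (c-Rel, a subunit known in lymphocytes and antigen-presenting cells, -1.45 ± 0.26, adjusted p = 0.00835), the kinases Ikbkb (-0.71 ± 0.16, adjusted p = 0.0206) and Chuk (-0.36 ± 0.09, adjusted p = 0.029), and the subunit Nfkb1 (-0.48 ± 0.12, adjusted p = 0.0338, all in edgeR). This count ranged from 1 to 8 when 1 library was left out. Of 6 tested proteases that cleave or help to cleave the ligands, Rhbdf1, a partner of the TNF-releasing protease ADAM17 that takes part in its maturation, was higher (0.94 ± 0.20, adjusted p = 0.017 in edgeR). The Rhbdf1 call was lost in the fit on all 12 libraries, and when the library numbered 2 or 3 of either sorted group was left out. Adam17 itself was at -0.11 ± 0.08 and Adam10 at -0.09 ± 0.09, while Furin, at -0.41, passed with the replicate block alone (adjusted p = 0.0149).

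In TAMs overexpressing miR-511-3p, no member of the family passed the test against TAMs with the mutated microRNA. Of the 32 members, 24 were tested, and none was called higher or lower in edgeR's quasi-likelihood test, as for all 14054 genes tested (0.0% higher and 0.0% lower). None of the 24 reached an unadjusted p under 0.05, where 2.44% of all genes did, and DESeq2 called 1 gene of all and no member. The median log2 fold change was -0.06 over the members tested and 0.0027 over all genes tested. Among the members tested, 2 (Tnfrsf8 and Tnfrsf12a) had all miR-511-3p libraries below all miR-511-3p-mut libraries, where 3.83% of all genes did, and none lay above, where 2.41% did. No gene of the 4 related lists passed in edgeR or DESeq2, and none had an unadjusted p under 0.05.

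The member of lowest p was Tnfsf9, with 58.0, 73.6 and 43.7 CPM in miR-511-3p TAMs, against 44.5, 47.6 and 44.1 CPM in miR-511-3p-mut TAMs. Its log2 fold change was 0.37 ± 0.17 (SE, adjusted p = 1.0 in edgeR), and the groups overlapped through the third miR-511-3p library. Tnfrsf8 had 1.17, 1.02 and 0.711 CPM in miR-511-3p TAMs, against 1.23, 1.47 and 1.46 CPM in miR-511-3p-mut TAMs, with a log2 fold change of -0.51 ± 0.27 (SE, adjusted p = 1.0 in edgeR). Tnfrsf9 had 39.8, 27.4 and 28.8 CPM in miR-511-3p TAMs, against 57.3, 32.8 and 39.6 CPM in miR-511-3p-mut TAMs. It was lower in all 3 same-numbered pairs, but the groups overlapped, and the log2 fold change was -0.43 ± 0.23 (SE, adjusted p = 1.0 in edgeR). With the replicate block it was -0.41 ± 0.07, at an adjusted p of 0.233.

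Tnfrsf10b had 2.65, 2.15 and 2.41 CPM in miR-511-3p TAMs, against 2.65, 2.49 and 6.40 CPM in miR-511-3p-mut TAMs. The log2 fold change of -0.67 ± 0.39 (SE, adjusted p = 1.0 in edgeR) rested on the third miR-511-3p-mut library and was -0.09 without it. Tnfrsf13b, the fifth by p, was at 0.13 ± 0.09 with the same adjusted p. The TNF receptors were at 0.05 ± 0.07 for Tnfrsf1a and -0.04 ± 0.08 for Tnfrsf1b.

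**Figure D4:**
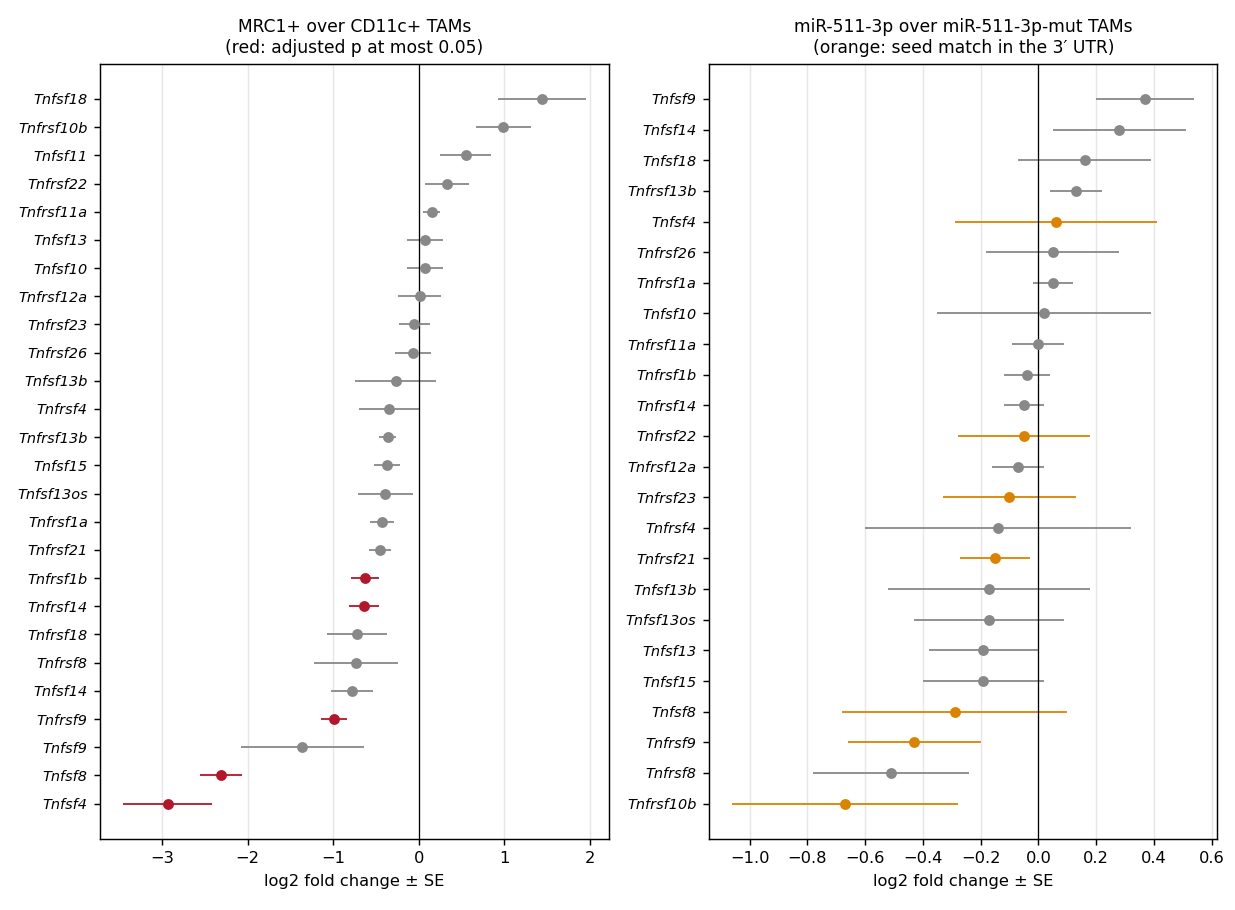
Log2 fold change with its SE for each member tested, MRC1+ over CD11c+ TAMs (left, 26 members, red where the adjusted p was at most 0.05) and miR-511-3p over miR-511-3p-mut TAMs (right, 24 members, orange where the 3′ UTR holds a seed match of miR-511-3p); the horizontal axes differ in scale. On the left the values run from -2.93 for Tnfsf4 to 1.44 for Tnfsf18, and on the right from -0.67 for Tnfrsf10b to 0.37 for Tnfsf9.

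A microRNA pairs through its seed, bases 2 to 8, with matching letters in the 3′ UTR of a transcript. The mature sequence from RefSeq (chr2:14261051-14261072, plus strand, GRCm38.p6) is shown with the seed in capitals, because the sites below are read from it.
miR-511-3p: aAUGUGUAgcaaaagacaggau
A match was counted as an 8mer (TACACATA), a 7mer-m8 (TACACAT) or a 7mer-A1 (ACACATA), on the transcript strand of the longest annotated 3′ UTR, with the 7-base forms counted only outside an 8mer. Matches were found in 8 of 31 members with such a UTR (25.8%) and in 20.1% of 19710 genes, with median UTR lengths of 1358 bases in the members and 1125 bases in all genes. For each of the 7 members that were also tested, 1 site is shown with 10 bases on each side, and the matched letters are in capitals.
Tnfrsf9: accctgttctTACACATcatcctagat
Tnfrsf10b: acctctgagaACACATAtgctacaagt
Tnfrsf21: tttttaaaaaTACACATAgtcaataggt
Tnfrsf22: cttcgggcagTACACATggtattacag
Tnfrsf23: tgtgccacacTACACATAgcttgaacat
Tnfsf4: ggcccctgaaTACACATAaaagacaact
Tnfsf8: tgtgtgtataTACACATAtatgtgtatg
The Tnfsf8 site lies in a stretch of alternating purine and pyrimidine letters. Tnfrsf13c, the eighth member with a match, had too few reads for the test.

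Of the 7 tested members with a match, 6 had a log2 fold change below 0 and the median was -0.155, with values from -0.67 for Tnfrsf10b to 0.06 for Tnfsf4. Of 16 members with a UTR and no match, 9 lay below 0, with a median of -0.023. Over all genes tested, 57.6% of the 2472 with a match and 47.2% of the 9451 without one lay below 0, with medians of -0.015 and 0.006. These counts are a description of the fitted values, none of the 7 passed the test, and the level of mature miR-511-3p was not analysed here.

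The largest ratio among members too low to test was that of Tnfsf11. It had 0.0449, 0.117 and 0.198 CPM in miR-511-3p TAMs, against 0.411, 0.223 and 1.55 CPM in miR-511-3p-mut TAMs. The groups did not overlap, with or without the third miR-511-3p-mut library, and the sums were 9 reads in miR-511-3p and 51 reads in miR-511-3p-mut TAMs, a ratio of 0.172 with a counting interval of 0.0746 to 0.353. The third miR-511-3p-mut library gave 35 of the 51 reads, and without it, a setting chosen after seeing the data, the ratio was 0.381 (0.149 to 0.916). Both intervals cover counting error only, not the spread between libraries. Tnfsf11 had enough reads for the test in 4 of the alternatives, with log2 fold changes of -2.93 to -2.17, and none of them called it. The third miR-511-3p-mut library, the highest for Tnfsf11, was also the highest in T cell markers, which summed to 9.55 to 20.5 CPM in miR-511-3p TAMs and to 16.3, 25.3 and 36.3 CPM in miR-511-3p-mut TAMs. In the latter sums Cd4 gave 11.7, 22.8 and 15.6 CPM. Each listed T cell marker but Cd4 was highest of that group in the third library. Among them, Cd3e had 0.374, 0.178 and 2.30 CPM and Cd8a had 1.05, 0.445 and 5.74 CPM in miR-511-3p-mut TAMs. Fibroblast markers summed to 88.4, 88.7 and 275 CPM in miR-511-3p TAMs and to 184, 169.6 and 669 CPM in miR-511-3p-mut TAMs. Their part in the Tnfsf11 ratio was not tested. Tnfrsf11b had 4 reads in miR-511-3p TAMs and 14 in miR-511-3p-mut TAMs. Tnfrsf13c had 4 in miR-511-3p and 10 in miR-511-3p-mut TAMs, and Tnfrsf18 had 23 in miR-511-3p and 27 in miR-511-3p-mut TAMs. Tnfrsf25 had 6 in miR-511-3p and 2 in miR-511-3p-mut TAMs, Tnfrsf17 had 2 in miR-511-3p and 3 in miR-511-3p-mut TAMs, and Tnfrsf19 and Tnfsfm13 had none in either group.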

How the data were processed

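RNA was sequenced from 12 libraries in 4 groups of 3, made with an Illumina TruSeq RNA kit per the labels. The authors deposited raw whole-number read counts for Ensembl genes. HTSeq, TopHat 1.2.0, Bowtie and SAMtools 0.1.12a and the build mm9 appear in the submitters' processing notes. The sources used here do not give how HTSeq treated strand and overlaps, and reads of a gene and its overlapping or antisense partner therefore cannot be told apart. Each table holds 36439 genes and 5 summary entries, which were left out. Reads over no gene made up 19.7% to 26.6% of a sorted library and 7.64% to 10.4% of an overexpressing library. Reads aligned to several places made up 15.5% to 20.1% of a sorted library and 12.8% to 13.3% of an overexpressing library.

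Symbols (31819 genes), exon lengths and 3′ UTRs came from GENCODE M21 (GRCm38); since the counts were made on an earlier build, gene coordinates are left out. Promoters and the microRNA came from RefSeq. A further site sequence is not reported here. Each comparison used edgeR 4.0.16 in R 4.3.3 (quasi-likelihood test, TMM, filterByExpr, Benjamini-Hochberg at 0.05 over all genes tested) on its 6 libraries. Genes are named with full statistics where they passed, or, where none passed, as the 5 members of lowest p, and up to 4 genes of lowest p per list; other values given in full, such as those of Tnfsf9, Tnfsf18, Tnfrsf10b and Tnf, were chosen after they were seen. Members and lists were chosen with earlier results of these data known. Libraries of a group differed by more than sampling noise (chi-square per degree of freedom 10.05 to 36.43).

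Libraries of the same number deviated from their group means together, with correlations of 0.1039, 0.3369 and 0.2504 for MRC1+ with CD11c+ TAMs, and 0.1468, 0.2585 and 0.4619 for miR-511-3p with miR-511-3p-mut TAMs. Libraries of unlike number had correlations of -0.2354 to -0.02704 in the sorted groups and of -0.3853 to 0.1657 in the overexpressing groups. The 3 deviations of a group sum to 0, so positive same-numbered values push those of unlike number below 0. The negative values are therefore not separate evidence of pairing. The value of 0.1657, for the first miR-511-3p and the second miR-511-3p-mut library, exceeded the same-numbered 0.1468. Since every same-numbered value exceeded 0.1, the numbers were used as pairs in the replicate block and the pairwise ratios, but not in the main fits. This pairing rests on the same data, as the labels do not state it. The alternatives were upper-quartile and RLE scaling, DESeq2 1.42.0, no filter on low counts, a filter of 5 CPM in 3 libraries, a fit on all 12 libraries, the replicate block, and leaving out each library. The steps were tested on simulated counts.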

Additional observations from a re-analysis of the deposited data

How the results depend on the processing

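For MRC1+ against CD11c+ TAMs, the members called lower, 5 in the report, were 8 by DESeq2, 8 with no filter on low counts, 8 in the fit on all 12 libraries and 3 with the filter of 5 CPM, which removes Tnfsf4 and Tnfsf8. The members called higher, 0 in the report, were 2 by DESeq2, 3 with no filter, 1 in the fit on all 12 libraries and 1 with the replicate block. Leaving out 1 library gave 3 to 11 lower and 0 to 2 higher. Superfamily genes with other names, 3 called in the report, were 5 with no filter and 5 with the replicate block, and 2 to 5 without 1 library. The TRAF list, 6 in the report, gave 10 in the fit on all 12 libraries and 2 to 11 without 1 library, the NF-kappaB list, 4 in the report, gave 1 to 8, and the proteases, 1 in the report, gave 0 to 3, with 0 in the fit on all 12 libraries and 2 with the replicate block. Among the fits without 1 library, each of these counts was highest without the first CD11c+ library, when 4707 genes in all were called, against 2597 with it and 1270 without the second MRC1+ library; the cause was not tested. Under upper-quartile scaling 1348 genes were higher and 1325 lower, against 1080 and 1517 in the report, while the called members were the same 5. Beyond these counts, the replicate block ended none of the 5 calls among the members. For miR-511-3p against miR-511-3p-mut TAMs all member and list counts were 0 under every alternative. Depth limits the members below 1 CPM, several of which had too few reads for a test.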
